A study of Mus musculus with 35 samples.

Results

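The 10 genes Tbx2, Tbx3, Tbx5, Tbx18, Tbx20, Gata4, Gata6, Hand2, Tcf21 and Wt1 encode transcription factors of the cardiac mesenchyme. They were taken by symbol from all 4 count tables, where each was found as 1 of 55487 genes. The study asked what the micropeptide IAMP does in cardiac fibroblasts (CFs) and in the mouse heart, and measured mRNA by RNA-Seq in 35 libraries. The 27 CF libraries came from primary adult mouse ventricular cells transfected with the control siRNA (si-NC) or with 1 of 2 siRNAs to the IAMP gene 4930523C07Rik (si-IAMP-1 and si-IAMP-2), and were left untreated, given IL-17 or given TGF-β, with 3 libraries in each of 9 groups. The 8 heart libraries came from heterozygous (Het) and knockout (KO) mice, 4 of each, on the C57BL/6 background and 8 weeks old by the study's methods. The KO allele is a CRISPR frameshift that does not remove the transcript, and Het mice, the controls, carry that allele once. The CFs had been freed by enzymes and plated for 3 h on collagen, so they were a culture selected by adhesion. IL-17 cells had the siRNA for 24 h and then the cytokine for 24 h by their labels, whereas no times were found for untreated and TGF-β cells.

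The members are T-box, GATA and bHLH factors, apart from Wt1. T-box factors bind DNA through a shared domain that gives the family its name. Tbx2 and Tbx3 are repressors best known from the atrioventricular canal and the conduction system, Tbx5 drives chamber genes in cardiomyocytes, Tbx18 marks the epicardium and the cells derived from it, and Tbx20 acts in cardiomyocytes, endocardium and valves. Gata4 and Gata6 are zinc finger activators shared by muscle and mesenchyme. Hand2 and Tcf21 are basic helix-loop-helix (bHLH) factors that pair with E proteins, and Tcf21 is the usual marker of resident CFs. Wt1 is a zinc finger factor of the epicardium. Many CFs descend from epicardial cells that express Tcf21, Tbx18 and Wt1 in the embryo.

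Promoter sequences from RefSeq (GRCm38.p6) were at hand for 4 members. Of these, Tbx20, Tbx18 and Tcf21 were the members higher in CFs than in hearts, and Hand2 was among the members that differed between the siRNAs. All 4 sequences are shown. Each runs 5′ to 3′ on the gene's own strand, from 250 bases before the annotated start to 50 after it. Capitals mark matches on either strand to the E-box CANNTG, bound by bHLH pairs, the GATA motif AGATAA and the core T-box motif GGTGTGA.
Tbx20, chr9:24774254-24774553, minus strand: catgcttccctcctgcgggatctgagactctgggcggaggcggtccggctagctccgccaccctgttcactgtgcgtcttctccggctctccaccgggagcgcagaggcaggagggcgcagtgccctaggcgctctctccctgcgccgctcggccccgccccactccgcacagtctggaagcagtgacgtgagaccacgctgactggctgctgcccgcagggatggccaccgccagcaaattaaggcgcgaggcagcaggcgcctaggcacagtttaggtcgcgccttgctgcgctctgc
Tbx18, chr9:87731211-87731510, minus strand: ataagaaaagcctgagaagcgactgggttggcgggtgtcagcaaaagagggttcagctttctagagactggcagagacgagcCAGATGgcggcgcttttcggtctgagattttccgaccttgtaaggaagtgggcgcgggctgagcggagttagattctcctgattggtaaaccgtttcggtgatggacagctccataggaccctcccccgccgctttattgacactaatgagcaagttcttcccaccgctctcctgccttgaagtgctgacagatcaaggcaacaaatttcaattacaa
Tcf21, chr10:22820094-22820393, minus strand: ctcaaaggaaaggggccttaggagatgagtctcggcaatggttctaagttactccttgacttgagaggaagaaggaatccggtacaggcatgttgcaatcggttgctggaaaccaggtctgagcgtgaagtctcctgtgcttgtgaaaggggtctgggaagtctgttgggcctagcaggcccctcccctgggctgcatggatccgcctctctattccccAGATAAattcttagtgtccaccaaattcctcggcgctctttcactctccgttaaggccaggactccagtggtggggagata
Hand2, chr8:57320733-57321032, plus strand: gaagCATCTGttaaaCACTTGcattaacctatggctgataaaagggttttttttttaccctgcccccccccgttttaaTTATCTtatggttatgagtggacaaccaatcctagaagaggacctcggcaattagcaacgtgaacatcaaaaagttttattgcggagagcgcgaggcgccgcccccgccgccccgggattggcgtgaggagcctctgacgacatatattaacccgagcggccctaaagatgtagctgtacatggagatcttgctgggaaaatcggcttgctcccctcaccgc
The Hand2 window held 2 E-boxes and 1 GATA motif, the Tcf21 window 1 GATA motif and the Tbx18 window 1 E-box. No letters of the 3 motifs matched in the Tbx20 window. Among all 32851 promoter windows of this length, 72.3% held the E-box, 11.2% the GATA motif and 3.98% the core T-box motif. The Tbx20 window was the richest of the 4 in G and C (68.3%, against a median of 52.7% over all windows) and held 26 CG pairs, where Tcf21 held 8, Tbx18 15 and Hand2 17.

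Library totals ran from 104139670 to 119232309 estimated counts in CFs and from 23497027 to 23857313 counts in hearts. Levels are CPM, a library's counts scaled to a common total by TMM over all libraries. The fibroblast markers summed to 10684 to 18735 CPM in CFs and 818 to 1209 CPM in hearts, and the 10 cardiomyocyte markers to 3.16 to 91 CPM in CFs and 63792 to 69919.5 CPM in hearts. In CFs nearly all of the latter sum was Tnnt2, while Myh6, Myl2, Myl3, Actc1 and Nppa each averaged at or near 0. The IAMP gene stood at 20.3, 21 and 23.8 CPM in the untreated si-NC libraries, 2.32, 3.24 and 2.74 CPM with si-IAMP-1 and 1.63, 1.71 and 1.74 CPM with si-IAMP-2, and was likewise lower in every knockdown library under IL-17 and TGF-β. In 5 CF libraries (untreated si-NC replicate 3, IL-17 si-NC replicates 1 and 3, TGF-β si-IAMP-1 replicate 2 and TGF-β si-IAMP-2 replicate 3) the 7 hepatocyte markers summed to over 10 CPM, up to 98.4. Each count below was also made without these 5. Whether replicates were separate cultures is not stated, so the p values measure the spread between libraries, which may be technical.

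The first question was how strongly each factor is expressed in unstimulated CFs. Levels of different genes were compared per kb of exon. In untreated si-NC cells, Tbx20 was the most abundant member at 110.3 ± 3 CPM per kb (SD, n = 3), rank 318 of 27451 genes above 0. It was followed by Tcf21 at 73.5 ± 5.69, Gata4 at 40.6 ± 0.899, Hand2 at 20.2 ± 0.937, Tbx18 at 14.8 ± 0.272 and Gata6 at 11.8 ± 0.435 CPM per kb. The other members were far lower, with Tbx2 at 2.68 ± 0.171, Tbx5 at 0.658 ± 0.0516, Tbx3 at 0.509 ± 0.0184 and Wt1 at 0.0404 ± 0.0152 CPM per kb. No 2 neighbours in this order overlapped between libraries. Tbx20 alone made up 40.1% ± 1.7 of the summed per-kb level of the 10 members in these cells, and 3.15% ± 0.184 in Het hearts (SD, n = 3 and 4).

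The order in Het hearts was another one. Hand2 led at 54.6 ± 6.74 CPM per kb (SD, n = 4), ahead of Gata4 at 40.1 ± 4.29. Gata6 at 13.7 ± 0.942 and Tbx5 at 12.2 ± 0.709 CPM per kb overlapped each other, as did Tbx20, Tbx2, Tbx3 and Tcf21 from each one to the next, between 4.28 ± 0.564 and 2.47 ± 0.305 CPM per kb. Wt1 and Tbx18 were the lowest, overlapped as well, and stood at 0.783 ± 0.164 and 0.605 ± 0.0728 CPM per kb.

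**Figure D1:**
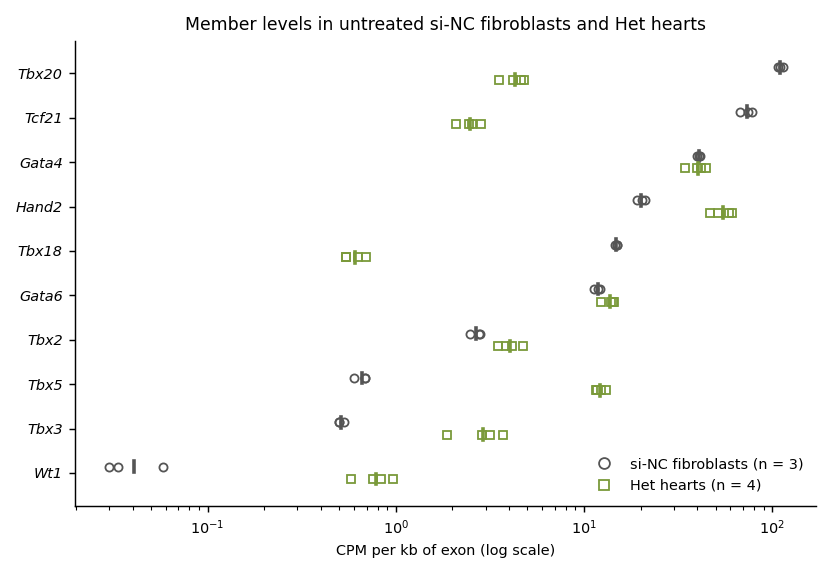
Level of each member in CPM per kb of exon on a log axis, in the 3 untreated si-NC fibroblast libraries (circles) and the 4 Het hearts (squares), with a vertical bar at each mean. Tbx20, Tcf21 and Tbx18 lie far to the right in fibroblasts, Tbx5, Tbx3 and Wt1 far to the right in hearts, Gata4 overlaps between them, and the Gata6 libraries lie close without overlap.

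Cultured CFs and whole hearts were then compared directly. Of the 10 members, 3 were higher in si-NC CFs than in Het hearts and 5 were lower, where a call here and below needs both an edgeR adjusted p up to 0.05 and a 1.5-fold change. Over all genes tested, 39.2% were higher and 41.3% lower, shares of a like size, so these counts say nothing particular about the members. Tissue, culture and table differ together in this comparison and cannot be told apart, and in bulk RNA fewer cells of a type cannot be told from less RNA per cell. Markers of other cells differed as well: 7 of 8 fibroblast markers were higher in CFs, all 10 cardiomyocyte, all 6 endothelial and all 4 erythroid markers were lower, as were 5 of 6 macrophage markers and 4 of 6 smooth muscle and pericyte markers, with 1 of the last higher. Of 7 hepatocyte markers 1 was tested and was not called.

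The 3 members that were higher in CFs were so in every library. Tcf21 (ENSMUSG00000045680, chromosome 10, 22817281 to 22820174, minus strand) stood at 175, 158 and 184 CPM in CFs and at 5.95, 4.88, 5.76 and 6.62 CPM in hearts, a log2 fold change of 4.79 (standard error 0.0938, adjusted p = 8.01e-11 in edgeR). Tbx20 (ENSMUSG00000031965, chromosome 9, 24718138 to 24774303, minus strand) stood at 1295, 1364 and 1311 CPM in CFs and 42.2, 50.5, 55.2 and 57.4 CPM in hearts. Its log2 fold change was 4.58 (standard error 0.102), or 24-fold. Tbx18 (ENSMUSG00000032419, chromosome 9, 87702800 to 87731260, minus strand) stood at 70.7, 70.8 and 68.5 CPM in CFs and 3.28, 2.99, 2.57 and 2.57 CPM in hearts, with a log2 fold change of 4.51 (standard error 0.0817).

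The 5 members lower in CFs were led by Wt1 and Tbx5. Tbx5 (ENSMUSG00000018263, chromosome 5, 119832668 to 119885219, plus strand) stood at 3.22, 3.21 and 2.8 CPM in CFs and 57.2, 54.1, 61.4 and 54.8 CPM in hearts, a log2 fold change of −4.31 (standard error 0.0857, adjusted p = 8.63e-11 in edgeR). Wt1 (ENSMUSG00000016458, chromosome 2, 105126529 to 105173616, plus strand) had 47, 24 and 28 estimated counts in the CF libraries, little above the floor of 18 (3 read pairs), and 95, 62, 107 and 89 counts in hearts, with a log2 fold change of −4.38 (standard error 0.297). Of 9 epicardial and mesothelial markers, 7 were higher in CFs than in hearts, Upk3b and Lrrn4 among them, and 1 was lower. Tbx3 (ENSMUSG00000018604, chromosome 5, 119670669 to 119684724, plus strand) had a log2 fold change of −2.61, Hand2 (ENSMUSG00000038193, chromosome 8, 57320983 to 57324633, plus strand) one of −1.54 and Tbx2 (ENSMUSG00000000093, chromosome 11, 85832551 to 85841948, plus strand) one of −0.70. The call of Tbx2 did not hold under every setting, as its value was −0.05 with library totals in place of TMM, −0.52 without the filter on low counts and −0.56 without Het replicate 4.

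Gata4 (ENSMUSG00000021944, chromosome 14, 63198922 to 63271692, minus strand) and Gata6 (ENSMUSG00000005836, chromosome 18, 11052064 to 11085635, plus strand) were not called between CFs and hearts. Gata4 stood at 162, 155 and 159 CPM in CFs and 134, 164, 156 and 173 CPM in hearts, and the 95% interval of its log2 difference was −0.24 to 0.06. Gata6 had an interval of −0.45 to −0.20 and stood at 79.3, 73.7 and 77.2 CPM in CFs and 90.5, 80.1, 92.3 and 93.6 CPM in hearts. With library totals both signs turned, to 0.57 for Gata4 and 0.34 for Gata6, under a scaling that moved the median of all genes from −0.01 to 0.65. RLE size factors moved it to −0.18.

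The relatives and partners of these factors were read from fixed lists. Of 11 other T-box genes, 5 were tested, with 3 higher in CFs (Tbx4, Mga and Tbx15 at log2 fold changes of 2.13, 1.66 and 0.90) and 2 lower (Tbx1 at −3.92 and Tbx6 at −3.62). Of 6 GATA genes and cofactors, 5 were tested, 2 higher (Gata3 at 2.28 and the FOG cofactor Zfpm2 at 1.67) and 3 lower (Gata2 at −3.15, Gata5 at −1.88 and Zfpm1 at −0.96). Of 13 bHLH partners, 6 were higher, led by Twist1 at 3.97, Id2 at 3.60 and Tcf24 at 3.21, and 3 lower. The lower ones were Tcf15, with 20.6 ± 8.21 CPM in Het hearts (SD, n = 4) and 0 in the untreated si-NC CFs, Tcf23 at −4.51 and Msc at −1.67. Of 38 other mesenchymal and cardiac factors, 22 were higher and 10 lower, with Sox9 at 4.09, Snai2 at 3.25 and Foxf2 at 3.19 at one end and the cardiomyocyte factor Nkx2-5 at −9.59, Irx3 at −6.88 and Irx5 at −5.63 at the other. Of 13 genes on the opposite strand of a member, 7 were tested, and those at Tbx2 and Wt1 were not. Gm10824 (at Tcf21), Gm29824 (at Tbx20) and D030062O11Rik (at Tbx18) were higher in CFs, while Hand2os1, Tbx3os1, Gata6os and Gm43050 (at Tbx5) were lower. Each of these went in the direction of its partner's call apart from Gata6os, whose partner was not called. The strand setting of the counting is not stated, and without strand the reads of such a pair cannot be told apart where the genes overlap. Hand2os1, with 86.5 ± 6.22 CPM in Het hearts (SD, n = 4) and 3251 bases of overlap with Hand2, was the most abundant of them.

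**Figure D2:**
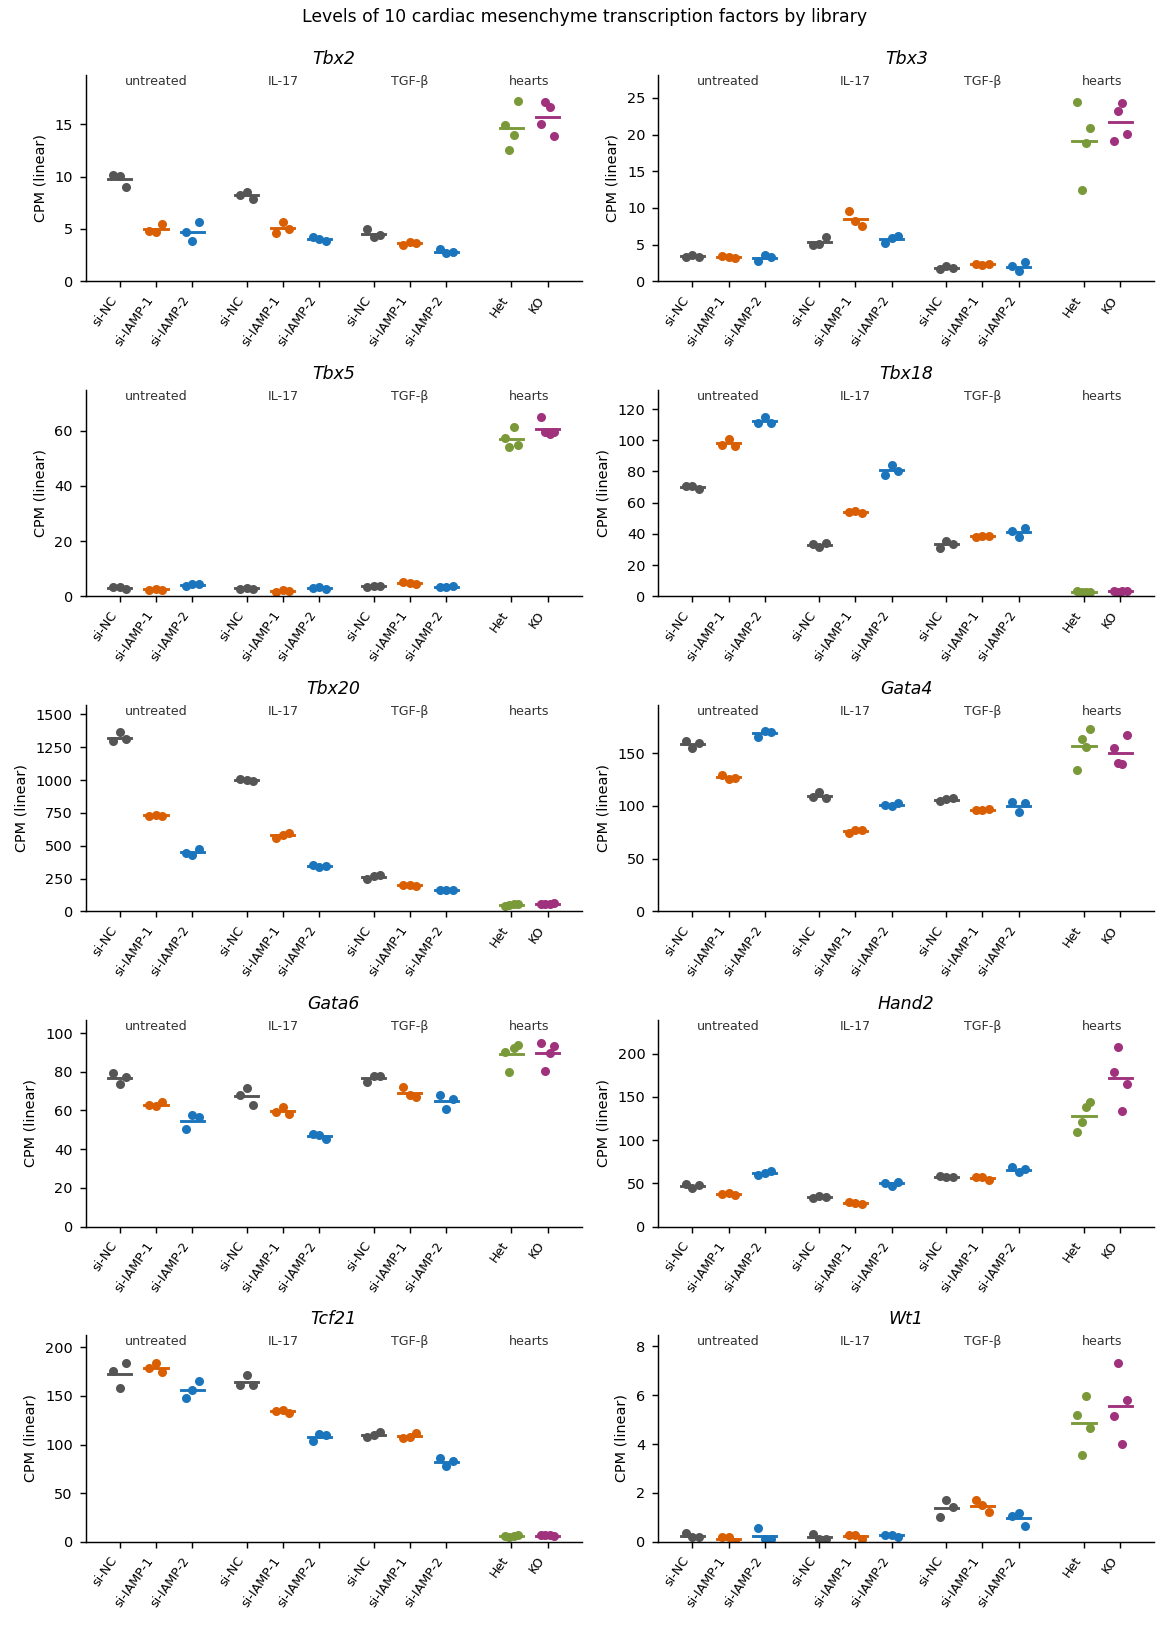
CPM of each member in every library on linear axes that start at 0 (1 panel per gene), with a bar at the group mean, for 3 libraries per fibroblast group and 4 per heart group. Tbx20 falls and Tbx18 rises from si-NC to si-IAMP-1 to si-IAMP-2 in untreated and IL-17 cells, both are low in hearts, and Tbx5, Tbx3 and Wt1 are low in all fibroblasts.

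IAMP knockdown in untreated CFs was examined next. With si-IAMP-1, 0 members rose and 2 fell, Tbx2 and Tbx20, where 5.42% of all genes tested rose and 6.65% fell. With si-IAMP-2, the same 2 fell and Tbx18 rose, where 8% of all genes rose and 13.1% fell. The median log2 fold change of the members was −0.31 with si-IAMP-1 and −0.07 with si-IAMP-2, beside −0.02 over all genes in both. The comparisons share their si-NC libraries, so each siRNA's own values are given side by side.

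Tbx20 had the largest fall of the members with si-IAMP-2. Its level was 1295, 1364 and 1311 CPM in si-NC, 726, 735 and 729.9 CPM with si-IAMP-1 and 444, 432 and 477 CPM with si-IAMP-2, 3 groups that did not overlap. The log2 fold change was −0.86 with si-IAMP-1 (standard error 0.0356, adjusted p = 1.14e-11 in edgeR) and −1.57 with si-IAMP-2 (standard error 0.0362, adjusted p = 4.71e-15 in edgeR). Its share of the members' summed per-kb level went from 40.1% ± 1.7 to 27.9% ± 0.25 and 18% ± 0.635 (SD, n = 3 each). Tnnt2, the only cardiomyocyte marker over 1 CPM in these cells, stood at 86.4 ± 3.78 CPM in si-NC, 40.9 ± 2.72 CPM with si-IAMP-1 and 27.6 ± 2.51 CPM with si-IAMP-2 (SD, n = 3 each). The epicardial and mesothelial markers summed to 225 to 241 CPM in si-NC, 189 to 196 CPM with si-IAMP-1 and 141 to 151 CPM with si-IAMP-2, with 1 of the 9 higher with each siRNA and 2 lower with si-IAMP-2. The smooth muscle and pericyte markers summed to 94.6 to 108 CPM in si-NC, 60.9 to 66.9 CPM with si-IAMP-1 and 49.1 to 60.8 CPM with si-IAMP-2, with 1 of the 6 lower with each siRNA. The fibroblast markers summed to 10910 to 11168, 15761 to 16509 and 15191 to 15385 CPM in the same order, with 1 of the 8 higher and 1 lower with si-IAMP-1 and 2 higher and 1 lower with si-IAMP-2. The part of these markers in the change of Tbx20 was not tested.

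Tbx2 stood at 10.1, 10.0 and 9.01 CPM in si-NC, 4.76, 4.69 and 5.47 CPM with si-IAMP-1 and 4.65, 3.84 and 5.62 CPM with si-IAMP-2. Both knockdown groups lay below every si-NC library and overlapped each other. Tbx2 changed by −0.97 (standard error 0.124) and −1.06 (standard error 0.124) on the log2 scale. Tbx18 went the other way, from 70.7, 70.8 and 68.5 CPM in si-NC to 96.8, 101 and 96.5 CPM and 111, 115 and 111 CPM, again without overlap. Its log2 fold change was 0.67 with si-IAMP-2 (adjusted p = 2.04e-11 in edgeR), and 0.49 with si-IAMP-1, which passed the p threshold (adjusted p = 2.86e-09 in edgeR) but not the fold of 1.5.

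The siRNAs differed from each other for several members. Compared directly, Hand2 and Tbx5 were higher and Tbx20 lower with si-IAMP-2 than with si-IAMP-1, where 5.72% of all genes tested were higher and 10.1% lower. Hand2 stood at 49.5, 45.1 and 47.5 CPM in si-NC, at 38, 38.2 and 36.1 CPM with si-IAMP-1 and at 59.3, 61.8 and 63.7 CPM with si-IAMP-2, so that si-NC lay between the siRNAs. The log2 difference of si-IAMP-2 from si-IAMP-1 was 0.71 (standard error 0.0465, adjusted p = 1.95e-09 in edgeR). Tbx5 had the same order at a much lower level, with 3.22, 3.21 and 2.8 CPM in si-NC, 2.43, 2.72 and 2.36 CPM and 3.66, 4.32 and 4.31 CPM, and a log2 difference of 0.70. For Gata4 the difference was 0.40 (adjusted p = 1.01e-08 in edgeR), under the fold of 1.5. Gata6 was below si-NC with both siRNAs, at log2 fold changes of −0.28 and −0.50. Tbx3, Tcf21 and Wt1 overlapped si-NC with each siRNA, and their 95% intervals with si-IAMP-2 were −0.33 to 0.16, −0.26 to −0.06 and −1.85 to 1.76. For Wt1, whose counts in these 9 libraries ran from 0 to 69 around the floor of 18, changes of this size were not detectable at this depth.

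Relatives and partners of the members were read from the same lists. Of 12 bHLH partners tested, Tcf4, an E protein, and Tcf24 fell with both siRNAs, at log2 fold changes of −0.71 and −0.95 for Tcf4 and −1.04 and −1.41 for Tcf24, among 2 that fell with si-IAMP-1 and 3 with si-IAMP-2. Of 37 other mesenchymal and cardiac factors tested, 5 fell and 2 rose with si-IAMP-1 and 12 fell and 2 rose with si-IAMP-2. Mef2a, Foxc2 and the Notch target Heyl fell with both siRNAs, Heyl by the most (−1.51 and −1.09). No GATA gene or cofactor of the 5 tested was called with either siRNA, and of 6 other T-box genes 1 fell, with si-IAMP-1. The medians of these 4 lists with si-IAMP-2 ran from −0.35 to 0.01, beside −0.02 over all genes.

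Under IL-17, the knockdown comparison was repeated in cells that received the cytokine. With si-IAMP-1, 2 members rose (Tbx3 and Tbx18) and 3 fell (Tbx2, Tbx5 and Tbx20), where 5.58% of all genes tested rose and 7.97% fell. With si-IAMP-2, Tbx18 rose and 3 members fell (Tbx2, Tbx20 and Tcf21), where 8.06% of all genes rose and 13.7% fell. Tbx20 went from 1009, 1002 and 996 CPM in si-NC to 558, 585 and 597 CPM with si-IAMP-1 and 352, 337 and 347 CPM with si-IAMP-2, a log2 change of −0.79 (standard error 0.0281) with the former and −1.55 (standard error 0.0286) with the latter. Tbx2 changed by −0.69 and −1.03. Beside these falls Tnnt2 stood at 66.5 ± 3.31 CPM, 30.9 ± 1.61 CPM and 21.7 ± 1.22 CPM (SD, n = 3 each). In the same order, the smooth muscle and pericyte markers summed to 142 to 146, 93.2 to 96.0 and 70.4 to 77.1 CPM. Of these 6, 2 were lower with si-IAMP-1, and 1 was higher and 1 lower with si-IAMP-2. The epicardial and mesothelial markers summed to 208 to 219, 205 to 215 and 133 to 139 CPM. Of these 9, 0 were called with si-IAMP-1 and 2 were lower with si-IAMP-2. The fibroblast markers summed to 10684 to 10824, 15039 to 15448 and 15243 to 16001 CPM. Of these 8, 1 was higher and 1 lower with si-IAMP-1, and 2 were higher and 1 lower with si-IAMP-2. The part of these markers in the changes was not tested.

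Of the members, Tbx18 rose most under IL-17. Its level was 33.4, 31.4 and 34.3 CPM in si-NC, 54.3, 54.9 and 53.2 CPM with si-IAMP-1 and 78, 83.9 and 80.3 CPM with si-IAMP-2, and no libraries of different groups overlapped. It rose by 0.71 on the log2 scale with si-IAMP-1 (standard error 0.041, adjusted p = 3.08e-10 in edgeR) and by 1.28 with si-IAMP-2 (standard error 0.0411, adjusted p = 6.5e-14 in edgeR). Tbx3 stood at 4.91, 5.05 and 5.96 CPM in si-NC, 9.59, 8.14 and 7.57 CPM with si-IAMP-1 and 5.25, 5.93 and 6.15 CPM with si-IAMP-2, so that si-NC and si-IAMP-2 overlapped and the si-IAMP-1 libraries lay above both. Its log2 fold change with si-IAMP-1 was 0.66 (standard error 0.111). Tbx5 with si-IAMP-1 changed by −0.61 (standard error 0.168), at 1.49, 2.31 and 1.77 CPM against 2.77, 3.04 and 2.68 CPM in si-NC. Without si-IAMP-1 replicate 1, the changes of Tbx3 and Tbx5 were 0.55 and −0.48, and neither was called, so that 3 members were called with si-IAMP-1. Tbx5 was also under the fold of 1.5 without si-NC replicate 2 or without si-IAMP-1 replicate 3.

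Tcf21, the resident fibroblast marker, stood at 161, 172 and 161 CPM in si-NC, 135, 136 and 132 CPM with si-IAMP-1 and 103, 111 and 109.8 CPM with si-IAMP-2. Its log2 fold change was −0.62 with si-IAMP-2 (standard error 0.034, adjusted p = 7.37e-11 in edgeR) and −0.30 with si-IAMP-1, under the fold of 1.5. Between the siRNAs, Hand2 (log2 difference 0.86) and Tbx5 (0.73) were higher and Tbx20 (−0.75) lower with si-IAMP-2, the members also called between the siRNAs in untreated cells. Over all genes tested, 6.07% were higher and 9.62% lower in that comparison. Hand2 stood at 33.3, 35.6 and 34 CPM in si-NC, 28.4, 27.7 and 26 CPM with si-IAMP-1 and 50.7, 47.4 and 51.9 CPM with si-IAMP-2. Of 11 bHLH partners tested, 3 fell with si-IAMP-1 and 4 with si-IAMP-2, with Tcf4 (−0.99 and −1.21), Tcf24 (−1.08 and −1.32) and the repressor Msc (−1.44 and −0.92) in both. Of 38 other mesenchymal and cardiac factors, 7 fell and 0 rose with si-IAMP-1 and 10 fell and 2 rose with si-IAMP-2, and Mef2a, Pbx3, Foxc1 and Heyl were among both. Of 7 other T-box genes and 5 GATA genes and cofactors, 1 of each list fell, with si-IAMP-2.

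**Figure D3:**
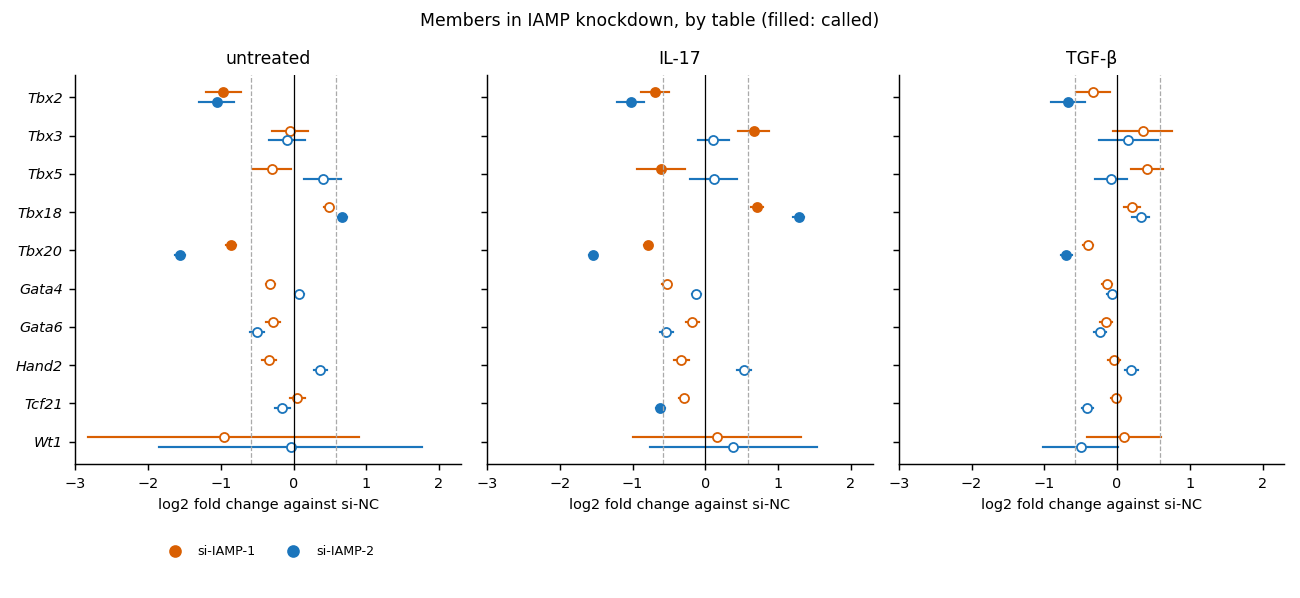
Log2 fold change of each member against si-NC with si-IAMP-1 (orange) and si-IAMP-2 (blue) in untreated, IL-17 and TGF-β cells, each from 3 against 3 libraries. Lines are 95% intervals, dashed lines the 1.5-fold limits and filled points the members called. Tbx2 and Tbx20 lie to the left of 0 and Tbx18 to the right in all 3 panels, with the smallest distances under TGF-β.

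Under TGF-β, the cytokine that turns CFs into myofibroblasts, fewer members were called. With si-IAMP-1, 0 of 10 members were called by edgeR and 0 by DESeq2, while 2.45% of all genes tested rose and 1.91% fell. An unadjusted p under 0.05 in edgeR was found for 6 members and for 6466 of all 19891 genes tested. With si-IAMP-2, Tbx2 and Tbx20 fell and 0 members rose, where 2.07% of all genes rose and 5.44% fell. Tbx20 stood at 246, 271 and 274 CPM in si-NC, 204, 203 and 193 CPM with si-IAMP-1 and 162, 160.4 and 163 CPM with si-IAMP-2. Its groups did not overlap, and it changed by −0.40 with si-IAMP-1 (standard error 0.0377) and by −0.70 with si-IAMP-2 (standard error 0.0378) on the log2 scale. In the same order, the epicardial and mesothelial markers summed to 120.4 to 135, 167 to 173 and 149 to 170 CPM. Of these 9, 1 was higher with each siRNA and 3 were lower with si-IAMP-2. The smooth muscle and pericyte markers summed to 58.8 to 61.1, 48.8 to 50.9 and 51.2 to 52.6 CPM. The fibroblast markers summed to 15204.7 to 16186.5, 17117 to 17515 and 17445 to 18735 CPM. The part of these markers in the change of Tbx20 was not tested. Tbx2 stood at 5.01, 4.21 and 4.42 CPM in si-NC, 3.44, 3.77 and 3.67 CPM and 3.04, 2.69 and 2.75 CPM, changing by −0.33 and −0.68. Tbx18 changed by 0.20 and 0.32 and Tcf21 by −0.02 and −0.41, all under the fold of 1.5. Between the siRNAs 0 members were called by edgeR or DESeq2, while 0.84% of all genes tested were higher and 3.12% lower with si-IAMP-2. In that comparison 6 members and 6678 of all 19891 genes had an unadjusted p under 0.05 in edgeR. Among 37 other mesenchymal and cardiac factors, 4 fell with si-IAMP-1 and 7 with si-IAMP-2, with Prrx2, Osr1, Hey2 and Heyl in both. Of the 12 bHLH partners, 2 fell with si-IAMP-2, and no other T-box or GATA gene was called.

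The stimuli were set against untreated cells in the si-NC groups. Each stimulus is a table of its own, so stimulus and table cannot be told apart. With IL-17, 1 member was higher and 1 lower, where 2.1% of all genes tested were higher and 0.976% lower. Tbx18 was 2.13-fold lower, at 33.4, 31.4 and 34.3 CPM against 70.7, 70.8 and 68.5 CPM (log2 fold change −1.09, standard error 0.0368, adjusted p = 1.12e-17 in edgeR). Tbx3 was higher, at 4.91, 5.05 and 5.96 CPM against 3.29, 3.51 and 3.32 CPM, by 0.65 (standard error 0.114). Without IL-17 si-NC replicate 3 the change of Tbx3 was 0.55 and without all libraries with hepatocyte markers 0.57, both under the fold of 1.5, which left Tbx18 as the 1 member called. Gata4 (−0.54), Hand2 (−0.47) and Tbx20 (−0.40) were lower in every IL-17 library than in every untreated one and passed the p threshold, but not the fold. Of 38 other mesenchymal and cardiac factors, 1 was higher and 7 lower. None of the tested 12 bHLH partners, 7 other T-box genes and 5 GATA genes and cofactors was called.

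With TGF-β, 5 members were lower and 1 higher than in untreated cells, where 18.7% of all genes tested were higher and 16.2% lower. Tbx20 was 5.02-fold lower, at 246, 271 and 274 CPM against 1295, 1364 and 1311 CPM (log2 fold change −2.33, standard error 0.0389, adjusted p = 1.95e-23 in edgeR), and Tcf21 led the members per kb there, at 46.9 ± 0.985 against 22 ± 1.28 CPM per kb for Tbx20 (SD, n = 3 each). Tnnt2 stood at 4.39 ± 0.224 CPM in these cells (SD, n = 3), with its part not tested. Tbx2 (−1.10), Tbx18 (−1.08), Tbx3 (−0.90) and Tcf21 (−0.65) were lower in every TGF-β library than in every untreated one. Gata4 had a log2 fold change of −0.58, just inside the fold of 1.5, and was called with RLE size factors and with DESeq2. Gata6 had an interval of −0.10 to 0.09 and Hand2 a log2 fold change of 0.28, under the fold. Of the marker lists, 5 of 6 endothelial, 3 of 6 macrophage and 3 of 6 smooth muscle and pericyte markers were higher and 1, 1 and 2 lower, and the part of other cells in these changes was not tested.

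Wt1 was the 1 member higher with TGF-β. It had 121, 201 and 168 estimated counts in the TGF-β si-NC libraries and 47, 24 and 28 in the untreated ones, or 1.01, 1.7 and 1.42 and 0.358, 0.185 and 0.208 CPM, a log2 fold change of 2.45 (standard error 0.757, adjusted p = 0.0116 in edgeR). The knockdown groups under TGF-β overlapped that range or lay close to it, at 1.7, 1.5 and 1.2 CPM with si-IAMP-1 and 1.07, 1.18 and 0.644 CPM with si-IAMP-2. Without untreated si-NC replicate 3 and the other libraries with hepatocyte markers, the change was 2.31 with an adjusted p of 0.0609 in edgeR, and the call was lost. The epicardial and mesothelial markers summed to 120.4 to 135 CPM with TGF-β and 225 to 241 CPM in untreated si-NC cells. Of these 9, 1 was higher and 4 were lower with TGF-β. The part of epicardial cells in the change of Wt1 was not tested. Of 38 other mesenchymal and cardiac factors, 8 were higher and 11 lower, of 12 bHLH partners tested 1 was higher and 6 lower, of 7 other T-box genes 3 were higher and 2 lower, and of 5 GATA genes and cofactors 1 was higher and 2 lower.

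**Figure D4:**
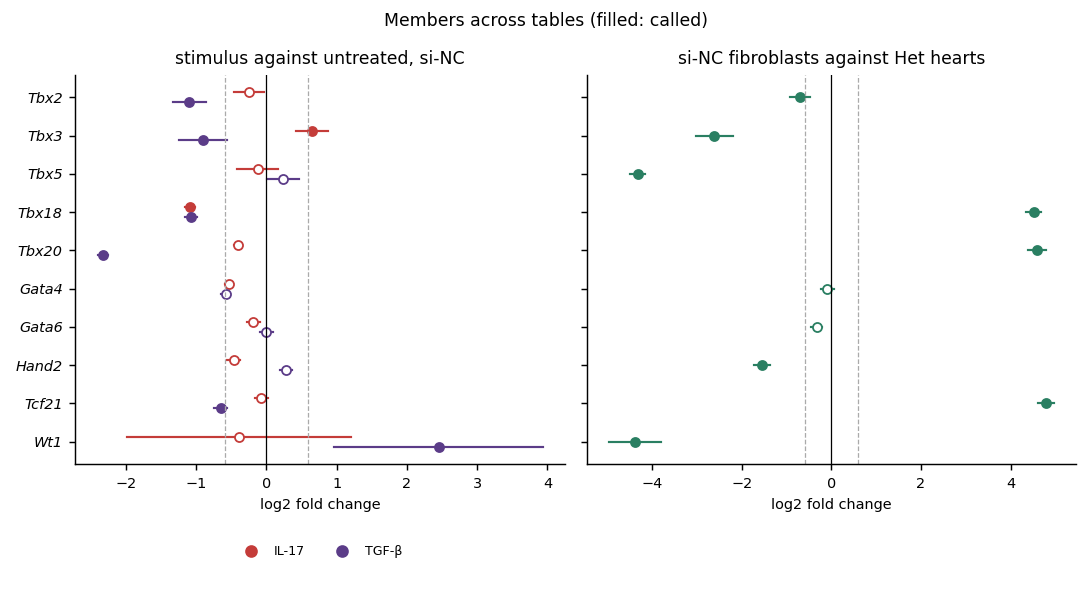
Log2 fold change of each member in si-NC cells with IL-17 (red) or TGF-β (purple) against untreated si-NC cells (left), and in untreated si-NC fibroblasts against Het hearts (right), with 95% intervals, dashed 1.5-fold limits and filled points for members called. With TGF-β, Tbx20 lies furthest left at −2.33 and Wt1 furthest right with the widest interval, and Tbx18 is near −1.1 with both stimuli.

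Whether the siRNA effect itself differed with the stimulus was tested as an interaction. Between IL-17 and untreated cells, 1 member differed for each siRNA. The si-IAMP-2 effect on Tbx18 was larger under IL-17 by 0.62 on the log2 scale (standard error 0.0511, adjusted p = 9.91e-09 in edgeR), where 0.198% of all genes tested had a higher and 0.287% a lower effect. The si-IAMP-1 effect on Tbx3 was higher by 0.71 (standard error 0.161, adjusted p = 0.0136 in edgeR), where 0.212% of all genes were higher and 0.236% lower. That call was lost without IL-17 si-NC replicate 1 (adjusted p = 0.052 in edgeR), without IL-17 si-IAMP-1 replicate 1 (0.0536) and without the libraries with hepatocyte markers (0.0757). The intervals for Tbx20 were −0.03 to 0.15 and −0.06 to 0.12.

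Between TGF-β and untreated cells, the si-IAMP-1 effect differed for Tbx5 (by 0.70, standard error 0.164) and Tbx2 (by 0.63, standard error 0.171), where 3.27% of all genes tested were higher and 2.34% lower. Without TGF-β si-NC replicate 2 the value of Tbx2 was 0.58, under the fold, which left 1 member called. The si-IAMP-2 effect differed for Tbx20 by 0.85 (standard error 0.0527, adjusted p = 9.15e-12 in edgeR), from −1.57 in untreated to −0.70 in TGF-β cells, where 6.59% of all genes were higher and 5.01% lower. The si-IAMP-1 effect on Tbx20 moved the same way by 0.45 (adjusted p = 7.69e-07 in edgeR), under the fold. The knockdown of the IAMP gene 4930523C07Rik itself was shallower under TGF-β. The gene stood at 17.5, 18.1 and 21.1 CPM in the TGF-β si-NC libraries, 4.25, 3.71 and 4.08 CPM with si-IAMP-1 and 2.66, 2.89 and 3.44 CPM with si-IAMP-2. Its log2 fold change was −2.97 in untreated and −2.23 in TGF-β cells with si-IAMP-1, and −3.69 and −2.65 with si-IAMP-2. Both differences were called, at 0.73 (standard error 0.155, adjusted p = 0.00113 in edgeR) and 1.03 (standard error 0.159), and their part in the differences of the members was not tested. Between IL-17 and untreated cells the intervals for the IAMP gene were −0.18 to 0.42 with si-IAMP-1 and −0.04 to 0.57 with si-IAMP-2.

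In hearts, the comparison of KO with Het asked whether loss of the micropeptide changes these factors in the organ. None of the 10 members was called by edgeR or DESeq2, and 1 had an unadjusted p under 0.05. Over all genes tested, 0% were higher and 0% lower by edgeR, DESeq2 called 2, and 601 had an unadjusted p under 0.05 in edgeR. Hand2 was the member with the largest difference, at 109.5, 121, 139 and 144 CPM in Het and 179, 208, 134 and 165 CPM in KO hearts. The groups overlapped, and the log2 difference was 0.42 with a 95% interval of 0.16 to 0.68 (adjusted p = 1 in edgeR, the interval itself not being adjusted for the genes tested). Tbx20 stood at 42.2, 50.5, 55.2 and 57.4 CPM in Het and 57.3, 52.9, 54.2 and 62.2 CPM in KO hearts, with an interval of −0.03 to 0.32. The intervals were −0.12 to 0.30 for Tbx2, −0.19 to 0.55 for Tbx3, −0.02 to 0.20 for Tbx5, −0.10 to 0.42 for Tbx18 and −0.19 to 0.58 for Wt1. They were −0.21 to 0.10 for Gata4, −0.12 to 0.14 for Gata6 and −0.12 to 0.33 for Tcf21. A change of 1.5-fold lay inside the interval of Hand2, and the upper bounds of Wt1 and Tbx3 came close to it. Because these intervals are somewhat too narrow, a change of 1.5-fold is not excluded for Wt1 and Tbx3 either.

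The genes whose pattern was most like that of each member were found by Pearson's r of log2 CPM over the 27 CF libraries, among 13184 genes that averaged 1 CPM or more. These libraries share siRNA groups and tables, so r describes group differences above all. For Tbx20 they were Trim59 (0.99), Shcbp1 (0.99) and Smc4 (0.99), and for Tbx2 Impa2 (0.96), Mcm7 (0.96) and Ccnb2 (0.96). For Tbx18 they were Ntn4 (0.95), Dipk2a (0.95) and Zfp346 (0.94), for Tbx3 Rgs16 (0.95), Rsbn1 (0.95) and Plpp3 (0.94) and for Tbx5 Sh3d19 (0.91), Ppp1r3b (0.91) and Tusc1 (0.87). For Tcf21 they were Trpm5 (0.95) and Pim3 (0.95), for Hand2 Fbxo8 (0.95), Gpx4 (0.95) and Slc37a4 (0.94), for Gata4 Dnajb4 (0.92), Wwc2 (0.90) and Mbnl1 (0.89) and for Gata6 Edn1 (0.95), Ebf3 (0.95) and Dzip1 (0.93). Wt1 was below that level. Among the members, Tbx20 was most like Tbx2 (0.91) and Tcf21 (0.90) and Hand2 most like Tbx5 (0.81), while Hand2 ran against Tbx3 (−0.77).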

How the data were processed

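RNA-Seq libraries of CFs and hearts were made by oligo(dT) selection and processed by the authors with Cutadapt, FastQC, HISAT2 (GRCm38) and StringTie. How strand was treated, which annotation was used and how whole numbers were made is not given in the sources used here. The authors deposited 3 CF tables of estimated counts, in which 1 read pair counts as up to 6, and 1 heart table of counts. The columns of the heart table name a group but no sample, so its replicates have no number of their own. No column of per-sample values was left out (0), and positions are those of GENCODE vM21.

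Counts as deposited were tested with edgeR 4.0.16 in R 4.3.3 (TMM scaling, filterByExpr, robust quasi-likelihood fit), 1 fit per table, across 2 tables for stimuli, and with the untreated and heart tables joined for CFs against hearts. Adjusted p values are Benjamini-Hochberg over all genes tested. A gene was called if its adjusted p was 0.05 or less and its fold 1.5 or more. The standard error is the log2 fold change divided by the root of F. CPM came from 1 TMM scaling over all libraries. The floor of detection was 3 read pairs, or 18 estimated counts, in CFs and 3 counts in hearts, and covers counting error only. The fits were tested on simulated data.

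The members and lists were chosen with earlier results of these data known. Named were the members, the IAMP gene as a check of the knockdown, list genes called with both siRNAs in a table or, between CFs and hearts, among the 3 largest changes each way, genes on the opposite strand, and the 3 genes most like each member, of which 1 is not reported here. Naming Myh6, Myl2, Myl3, Actc1, Nppa, Tnnt2, Upk3b and Lrrn4 was chosen after their values were seen. The alternatives were RLE size factors, DESeq2 1.42.0, other filters and thresholds, division of estimated counts by 6, a fit on the groups compared only, a replicate block, library totals, leaving out each library and, chosen after seeing the data, leaving out the 5 libraries with over 10 CPM of hepatocyte markers.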

Additional observations from a re-analysis of the deposited data

Results flagged for a closer look

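The siRNA effect on 5 members differed between stimulated and untreated cells by the interaction test of edgeR, each from 3 libraries per group. Under IL-17 it was higher by 0.71 (log2) for Tbx3 with si-IAMP-1, where 0.212% of all genes tested were higher and 0.236% lower. For Tbx18 with si-IAMP-2 it was higher by 0.62, where 0.198% of all genes were higher and 0.287% lower. The Tbx3 call was lost without IL-17 si-NC replicate 1, without IL-17 si-IAMP-1 replicate 1 and without the libraries with hepatocyte markers. Under TGF-β it was higher by 0.63 for Tbx2 and 0.70 for Tbx5 with si-IAMP-1, where 3.27% of all genes were higher and 2.34% lower. For Tbx20 with si-IAMP-2 it was higher by 0.85, where 6.59% of all genes were higher and 5.01% lower. The Tbx2 call was lost without TGF-β si-NC replicate 2, at 0.58. The IAMP gene itself was reduced less under TGF-β than in untreated cells, by a log2 difference of 0.73 with si-IAMP-1 and 1.03 with si-IAMP-2, both called, and the part of this was not tested. Stimulus and table cannot be told apart in these differences.

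One value stood far from the others of its group. Tbx5 in KO hearts was at 64.9, 59.4, 58.8 and 59.4 CPM, and the gap of the highest library to the next was 0.896 of the group's range, above Dixon's 95% critical value for 4 samples. The 10 members gave 20 such heart groups, and chance marks about 1 in 20.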

How the results depend on the processing

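RLE size factors, DESeq2, the filters, division of estimated counts by 6 and fits on the groups compared only left every count of members called within 1.5 times its value. The thresholds did not. At a fold of 2, counts were 0 for si-IAMP-1 and for si-IAMP-2 against si-IAMP-1 in untreated and IL-17 cells, 0 for si-IAMP-2 under TGF-β, 1 for IL-17 against untreated and 0 for all 4 interactions. With no fold, counts for si-IAMP-1, si-IAMP-2 and their difference were 6, 8 and 7 in untreated and 9, 7 and 9 in IL-17 cells. They were 5, 6 and 5 in TGF-β cells and 6 for IL-17 against untreated. For the interactions with IL-17 (si-IAMP-1, si-IAMP-2) and TGF-β they were 4, 3, 6 and 7. Counts over all genes are at hand for an unadjusted p under 0.05 in edgeR, a looser threshold. At that threshold the counts of members, in the same order, were 7, 8 and 7 in untreated and 9, 7 and 9 in IL-17 cells. They were 6, 6 and 6 in TGF-β cells, 7 for IL-17 against untreated and 4, 4, 6 and 8 for the interactions. The counts over all genes were 9001, 10491 and 9873 of 19669 in untreated and 9537, 10831 and 10087 of 19906 in IL-17 cells. They were 6466, 7550 and 6678 of 19891 in TGF-β cells and 5014 of 21219 for IL-17 against untreated. The interactions had 2517 and 2055 of 21219 and 6286 and 8164 of 21508.

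Without the libraries with hepatocyte markers, IL-17 against untreated called 1 member and its interaction with si-IAMP-1 0, and log2 values turned for Tbx3 (−0.10, si-IAMP-2 under TGF-β), Tcf21 (0.039, IL-17 against untreated) and Hand2 (−0.047, IL-17 interaction with si-IAMP-1), none of them called. The Hand2 value was −0.0015 with only the groups compared. Gata6 under TGF-β turned to 0.017 with 10 counts in every library and to 0.0048 after division by 6. Between CFs and hearts, Gata4 turned to 0.10 without a filter and 0.57 with library totals, and Gata6 to 0.34. The cause was not tested.

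Leaving out each library gave 3 to 5 members for si-IAMP-1 under IL-17, 1 to 2 for IL-17 against untreated, 0 to 1 for its interaction with si-IAMP-1 and 1 to 2 for the TGF-β interaction with si-IAMP-1. Uncalled values that changed sign were Tcf21 (−0.0094 to 0.10) with si-IAMP-1, Wt1 (−1.44 to 0.36) with si-IAMP-2, and Tbx2 (−0.24 to 0.037), Tbx3 (−0.11 to 0.044) and Wt1 (−0.48 to 1.35) between the siRNAs in untreated cells. Under IL-17 they were Wt1 with si-IAMP-1 (−0.086 to 0.80) and between the siRNAs (−0.12 to 0.45). Under TGF-β they were Wt1 (−0.077 to 0.28) with si-IAMP-1 and Tbx3 with si-IAMP-2 (−0.10 to 0.37) and between the siRNAs (−0.45 to 0.019). In the interactions they were Hand2 (−0.024 to 0.052, si-IAMP-1) and Tbx2 (−0.090 to 0.19), Tbx20 (−0.0062 to 0.072) and Gata6 (−0.083 to 0.017, all si-IAMP-2) for IL-17 and Wt1 (−0.87 to 0.92, si-IAMP-2) for TGF-β. The others were Gata6 with TGF-β (−0.033 to 0.014), Gata6 in KO hearts (−0.040 to 0.057) and Gata4 between CFs and hearts (−0.11 to 0.017).

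With the replicate block, the TGF-β comparison called 6 members and no call changed in any of the 15 CF comparisons. Of 27 same-numbered pairs of groups, 0 had correlated deviations over 0.1 (−0.162 to 0.071, over 14609 genes). Same-numbered libraries thus showed no shared deviation. With 3 libraries per group, the check cannot tell whether same-numbered libraries came from the same culture. No paired analysis was possible for hearts, or for CFs against hearts, because heart columns carry no number. Depth limits Wt1 in untreated and IL-17 CFs, where it lies near the floor.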

Other observations

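Genes on the opposite strand of a member moved in some knockdown comparisons too. Of 7 tested in untreated cells, 2 fell with si-IAMP-2, where 13.1% of all genes tested fell, and 0 were called with si-IAMP-1. They were Gm29824 at Tbx20 (log2 fold change −0.90) and Gm10824 at Tcf21 (−0.86), while Tcf21 itself was not called (−0.16). The strand setting of the counting is not stated, so reads of overlapping genes may not be told apart. Gm29824 and Gm10824 fell with si-IAMP-2 under IL-17 as well (−1.05 and −0.91), where 13.7% of all genes tested fell. Gm29824, which starts 2164 bases from Tbx20 without overlap, was lower with TGF-β than in untreated cells (−1.96), as was D030062O11Rik, which overlaps Tbx18 by 1976 bases (−1.10). These were 2 of 7 tested, where 16.2% of all genes tested were lower. Gm10824 overlaps Tcf21 by 2894 bases and was lower with IL-17 than in untreated cells (−0.85), as 1 of 7 tested, where 0.976% of all genes were lower. Hand2os1 was higher with si-IAMP-2 than with si-IAMP-1 under IL-17 by 0.76, in the comparison in which Hand2 was higher by 0.86. In that comparison 1 of 7 tested was higher and 1 lower, where 6.07% of all genes were higher and 9.62% lower. In untreated cells 0 of 7 were higher and 1 lower between the siRNAs, where 10.1% of all genes were lower.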
